A study of Mus musculus with 12 samples.

Results

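The linker histones and the histones that replace others outside DNA replication were followed in mouse CD8+ T cells through 9 genes, chosen by name: Hist1h1c and H1f0 (linker histones), H2afz, H2afv, H2afx, H2afy and H2afj (variants of histone H2A), and H3f3a and H3f3b (histone H3.3). The choice was made with earlier results of these data known. All 9 were found among the 56691 gene IDs of the count table, and all 9 passed the filter on low counts that left 15935 genes for testing. RNA was sequenced from naive CD8+ T cells of the spleen that were Senp1 WT or Senp1 CKO, CKO being the usual short form of conditional knockout, and Senp1 encodes a protease that takes the small protein SUMO off its targets. The cells were either left unstimulated (0 h) or kept for 48 h with antibodies to CD3 at 5 μg/ml and to CD28 at 1 μg/ml, which together mimic antigen and costimulation. No group was kept for 48 h without the antibodies. Changes with stimulation, as named below, therefore cannot be told apart from those of time in culture. There were 4 groups of 3 libraries, written below as WT 0 h, WT 48 h, CKO 0 h and CKO 48 h. Not given in the sources used here are the Cre driver, the exons removed, the age and sex of the mice and any pooling of animals.

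DNA is wound around octamers of the core histones H2A, H2B, H3 and H4, and a linker histone (H1) sits where the DNA enters and leaves. Most histone genes are read only while DNA is copied and give mRNAs that end in a stem-loop in place of a poly(A) tail. Replacement histones are in the main, though not all of them solely, made from polyadenylated mRNAs, also outside DNA replication. H3.3 is placed by HIRA and by DAXX with ATRX at active genes and repeats. H2A.Z is exchanged by the SRCAP and EP400 complexes at promoters, and H2A.X is phosphorylated around DNA breaks. MacroH2A carries a large extra domain and is known from silent chromatin. H1.0, the product of H1f0, is the linker histone of resting and differentiated cells. Resting lymphocytes hold condensed chromatin that opens when the cells enter division. The labels name an mRNA library kit and do not say how mRNA was selected. If it was by the poly(A) tail, as is usual with such kits, the counts of Hist1h1c, a gene of the replication-dependent cluster on chromosome 13, cover tailed transcripts.

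H3f3a and H3f3b code for the same protein from different letters, which is why reads of the pair can be counted apart. In GENCODE M21 transcripts (GRCm38) their coding parts of 411 bases matched at 316 bases, or 76.9%, with no shared run longer than 23 bases, and 83 of 137 codons were spelled differently. The first 90 coding bases are shown with the 20 bases that differ between the genes in capitals.
H3f3a: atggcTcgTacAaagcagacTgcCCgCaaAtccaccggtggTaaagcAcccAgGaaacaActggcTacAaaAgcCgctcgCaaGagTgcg
H3f3b: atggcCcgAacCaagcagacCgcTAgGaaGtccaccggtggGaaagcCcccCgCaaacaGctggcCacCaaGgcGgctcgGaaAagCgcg
H2afz and H2afv, which code for the nearly identical proteins H2A.Z.1 and H2A.Z.2, matched at 306 of 387 coding bases (79.1%), with no shared run longer than 14 bases.

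The 250 bases before the transcription start were read from RefSeq (GRCm38.p6) for 8 of the 9 genes, all but H2afx, and 4 are shown: the H3.3 pair, whose levels parted with stimulation, and the linker pair, whose levels moved in opposite directions. Capitals mark CCAAT on either strand, the core of the box bound by the factor NF-Y.
H3f3a: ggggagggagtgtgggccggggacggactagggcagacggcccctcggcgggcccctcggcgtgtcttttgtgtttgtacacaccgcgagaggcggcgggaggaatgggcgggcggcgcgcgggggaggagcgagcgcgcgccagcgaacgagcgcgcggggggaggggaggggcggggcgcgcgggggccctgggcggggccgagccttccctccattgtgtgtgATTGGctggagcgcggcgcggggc
H3f3b: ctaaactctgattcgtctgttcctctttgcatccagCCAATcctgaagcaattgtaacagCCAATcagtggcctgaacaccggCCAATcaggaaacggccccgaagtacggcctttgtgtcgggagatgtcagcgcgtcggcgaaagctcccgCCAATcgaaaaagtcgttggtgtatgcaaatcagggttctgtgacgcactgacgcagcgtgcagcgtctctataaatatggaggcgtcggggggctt
Hist1h1c: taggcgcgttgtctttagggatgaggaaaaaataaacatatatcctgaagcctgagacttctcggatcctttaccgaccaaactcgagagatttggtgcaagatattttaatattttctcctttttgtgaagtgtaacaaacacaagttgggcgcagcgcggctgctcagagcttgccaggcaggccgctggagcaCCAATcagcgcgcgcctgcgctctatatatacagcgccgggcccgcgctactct
H1f0: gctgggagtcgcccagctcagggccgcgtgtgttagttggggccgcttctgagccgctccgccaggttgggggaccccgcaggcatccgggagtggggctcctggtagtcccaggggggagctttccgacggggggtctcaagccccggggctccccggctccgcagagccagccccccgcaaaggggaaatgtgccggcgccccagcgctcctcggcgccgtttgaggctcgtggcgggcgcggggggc
RefSeq places the start of some genes elsewhere than the GENCODE M21 spans given below. The windows of H3f3a, H3f3b and H2afy lie inside those spans. The H1f0 window ends at 79028211, before its span starts at 79028450, and the bases between were not searched. The windows are at chr1:180813606-180813855 (H3f3a, minus strand), chr11:116024505-116024754 (H3f3b, minus strand), chr13:23738557-23738806 (Hist1h1c, plus strand) and chr15:79027962-79028211 (H1f0, plus strand). The H3f3b window held 4 CCAAT, at 209, 185, 162 and 92 bases before the start, and the letters TATAAA 21 bases before it. The H3f3a window held 1 CCAAT, 19 bases before the start, and 4 copies of GGGCGG, the core of an Sp1 box, of which the pair at 138 and 134 bases overlap. Its base composition also differed, with 77.2% G and C against 54.0% in H3f3b. Hist1h1c had 1 CCAAT, 49 bases before the start, and 1 AAACACA, the letters known as the H1 box, which the H3f3a window also held once. The H1f0 window, which leaves out the bases next to its GENCODE start, held none of these motifs. Among the others, H2afz had 2 CCAAT, H2afv 4, H2afj 3 and H2afy none. Over 32851 RefSeq windows of the same length and searched on both strands, 33.8% held CCAAT, 0.84% held it 4 or more times, 12.4% held TATAAA, 32.7% GGGCGG and 6.25% AAACACA. These matches describe letters in a window and not binding.

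Library totals ran from 15900529 to 22427151 counts. Senp1 had a mean of 82.4 ± 3.99 CPM (counts scaled to a common total with TMM factors, SD, n = 3) at WT 0 h and 57.0 ± 2.64 CPM at CKO 0 h, and 162 ± 10.5 and 70.3 ± 4.13 CPM at 48 h, so the labels and the targeted gene went together. All 10 markers of CD8 T cells were read in every group, with a summed level of 4992 to 5373 CPM at WT 0 h, and all 10 fell with stimulation in both genotypes. Markers of other cells were also present at 0 h. The 10 B-cell markers summed to between 898 and 1669.7 CPM at WT 0 h, replicate 1 being the highest, and to between 775 and 855 CPM at CKO 0 h. At 48 h they summed to between 304 and 355 CPM in WT and between 280.3 and 293 CPM in CKO. Of the other lists, 9 of 10 natural killer markers fell in both genotypes, 8 of 10 myeloid markers in WT and 9 in CKO, all 4 tested neutrophil markers in both, and 7 of 8 tested erythroid and platelet markers in WT and 6 in CKO (edgeR). Over all tested genes 39.1% were called lower in WT and 39.2% in CKO, and 38.7% and 38.5% higher. Of 5 CD4 T-cell markers 1 (Ctla4, also an activation gene) rose in both genotypes, while 1 fell in WT and 2 in CKO. Their sum, most of it Ctla4 (mean 295 CPM at WT 0 h, 692 at WT 48 h, 341 at CKO 0 h and 539 CPM at CKO 48 h), was 364 to 425 CPM at WT 0 h, 645 to 1009 at WT 48 h, 391 to 468 at CKO 0 h and 511 to 700.4 CPM at CKO 48 h. The part of these cells in the changes with stimulation described below was not tested, and in RNA from mixed cells fewer cells of a type and less RNA per cell cannot be told apart. Replicate 1 of both WT groups differed most from its group, with a chi-square per degree of freedom over genes of 20.9 and 16.6 against the other 2 libraries at 48 h (4.75 between those) and of 11.4 and 9.42 at 0 h (7.78), and results that change without this pair of libraries are given with and without it. Nothing in the labels tells whether replicates were separate animals, and the p-values then reflect only the scatter of these libraries, which may be technical.

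The first question was how the 9 genes differed between 48 h with the antibodies and 0 h. In WT cells 6 rose (H1f0, H2afz, H2afx, H2afv, H2afy, H2afj), 2 fell (Hist1h1c, H3f3b) and 1 was not called (H3f3a). In CKO cells 5 rose, 3 fell and H2afv was not called. In WT the size of the change ran from a Hist1h1c level cut to 3.75% of its unstimulated value to an H2afx level 5.26 times as high. All such changes are relative, since CPM are shares of a library's counts. Levels per cell were not measured here, and RNA per cell may differ between 0 h and 48 h. These counts stand against a background in which most genes moved: 77.9% of all 15935 tested genes were called in WT, 38.7% higher and 39.1% lower, and 77.7% in CKO, 38.5% higher and 39.2% lower (edgeR adjusted p under 0.05). Libraries of the called genes did not overlap between 0 h and 48 h, as was so for 39.6% of all genes upwards and 39.8% downwards in WT, and 40.1% and 40.8% in CKO. The median log2 change of the 9 genes was 0.35 in WT and 0.18 in CKO, and that of all tested genes -0.03 and -0.04.

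**Figure D1:**
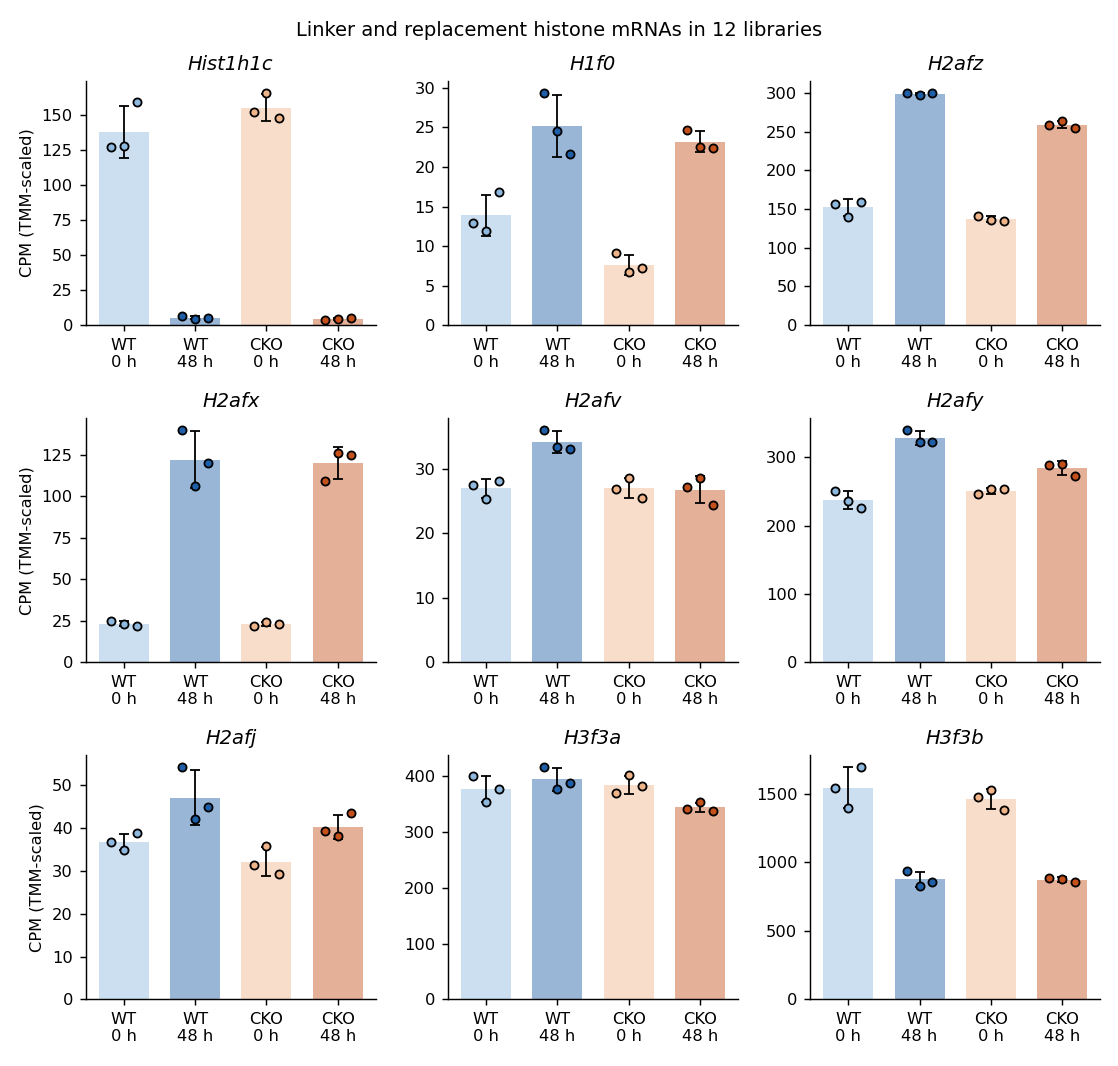
Level of each gene in CPM (TMM-scaled, linear axes that start at 0) in the 12 libraries, with points for libraries, bars for the mean of 3 and error bars for the SD. Hist1h1c drops from above 126 CPM to below 6.5 CPM at 48 h, H3f3b drops less, H2afx and H2afz rise in both genotypes, and H1f0 is lowest in CKO at 0 h.

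Hist1h1c (ENSMUSG00000036181, chr13:23738808-23740367 in GRCm38, a single exon) is now named H1f2 and encodes H1.2, a main linker histone of somatic cells. It stood at 127, 128 and 159.6 CPM in the WT libraries at 0 h and at 6.34, 4.42 and 4.77 CPM at 48 h. In CKO it stood at 152, 166 and 148 CPM at 0 h and at 3.92, 4.23 and 5.36 CPM at 48 h. Every stimulated library was thus far below every unstimulated one in both genotypes, and 70 to 122 counts per library were left at 48 h. The log2 change was -4.74 ± 0.137 in WT (SE, edgeR adjusted p = 4.51e-15) and -5.10 ± 0.144 in CKO (edgeR adjusted p = 2.53e-15), which is 26.7-fold and 34.2-fold lower. If mRNA was selected by the poly(A) tail, this fall is one of tailed transcripts, and stem-loop mRNA of Hist1h1c was not measured.

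H1f0 (ENSMUSG00000096210, chr15:79028450-79030504 in GRCm38, a single exon), the other linker gene, moved the opposite way. It stood at 12.9, 11.9 and 16.8 CPM at WT 0 h and at 29.4, 24.6 and 21.6 CPM at WT 48 h. In CKO it stood at 9.10, 6.66 and 7.19 CPM at 0 h and at 24.7, 22.5 and 22.4 CPM at 48 h. The stimulated libraries lay above the unstimulated ones in both genotypes, with log2 changes of 0.86 ± 0.143 in WT (SE, edgeR adjusted p = 1.97e-05) and 1.60 ± 0.153 in CKO (edgeR adjusted p = 1.09e-08). The summed level of the pair was 152 ± 21.3 CPM at WT 0 h and 30.4 ± 4.85 CPM at WT 48 h (SD, n = 3), and in CKO 163 ± 9.03 CPM and 27.7 ± 0.95 CPM. Per kilobase of exon, Hist1h1c was the higher of the linker pair at 0 h (88.4 against 6.75 CPM per kb in WT) and H1f0 at 48 h (12.3 against 3.32 CPM per kb in WT, 11.3 against 2.89 in CKO). With selection by the poly(A) tail, the sum and the order of the pair would leave out stem-loop mRNA of Hist1h1c.

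Among the 5 genes of H2A variants, H2afx (ENSMUSG00000049932, chr9:44334694-44336077 in GRCm38, a single exon) had the largest change. It stood at 24.8, 22.8 and 22.1 CPM at WT 0 h and at 139.9, 106 and 120 CPM at WT 48 h, and at 22.1, 24.5 and 22.8 CPM and at 109, 126 and 125 CPM in CKO. The log2 change was 2.39 ± 0.0933 in WT (SE, edgeR adjusted p = 1.4e-14) and 2.37 ± 0.0942 in CKO (edgeR adjusted p = 1.8e-14). Within each time the libraries of the genotypes overlapped.

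H2afz (ENSMUSG00000037894, chr3:137864487-137866922 in GRCm38), the H2A.Z gene with the higher level per kilobase, rose in both genotypes. It stood at 157, 139.9 and 159 CPM at WT 0 h and at 299.5, 297 and 299.6 CPM at WT 48 h, and at 141, 136 and 134 CPM and at 259, 263 and 254 CPM in CKO. The log2 change was 0.98 ± 0.0579 in WT (SE, edgeR adjusted p = 7.17e-12) and 0.92 ± 0.0582 in CKO (edgeR adjusted p = 2.01e-11). Its sister H2afv (ENSMUSG00000041126, chr11:6427229-6444443) rose in WT, from 27.4, 25.3 and 28.1 CPM to 36.0, 33.3 and 33.0 CPM (log2 change 0.34 ± 0.0869, SE, edgeR adjusted p = 0.00149). In CKO the H2afv libraries of 0 h (26.8, 28.6 and 25.5 CPM) and 48 h (27.2, 28.5 and 24.4 CPM) overlapped, with a log2 change of -0.02 ± 0.0885 (edgeR adjusted p = 0.879).

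H2afy (ENSMUSG00000015937, chr13:56073619-56136361 in GRCm38), the gene of macroH2A1, rose in both genotypes. It stood at 250.4, 236 and 225 CPM at WT 0 h and at 340, 322 and 322 CPM at WT 48 h (log2 change 0.47 ± 0.0568, SE, edgeR adjusted p = 3.4e-07). In CKO it stood at 246, 253 and 253 CPM at 0 h and at 289, 290.4 and 272 CPM at 48 h (0.18 ± 0.0569, edgeR adjusted p = 0.00742). Its exons overlap those of the antisense gene Gm47071, whose counts came to 3.147% of its own, and the sources used here do not give the strand setting of the counting. H2afj (ENSMUSG00000060032, chr6:136808244-136810074) encodes H2A.J, a variant known to build up in senescent cells. It ran from 35.0 to 38.8 CPM at WT 0 h and from 42.1 to 54.3 CPM at WT 48 h, and from 29.2 to 35.8 CPM and 38.1 to 43.5 CPM in CKO, with log2 changes of 0.35 ± 0.097 (SE, edgeR adjusted p = 0.00266) and 0.33 ± 0.0991 (edgeR adjusted p = 0.00569). With the filter on low counts raised, which moved the median of all genes by -0.112 in WT and -0.114 in CKO, the CKO calls of H2afy (log2 change 0.07, edgeR adjusted p = 0.267) and H2afj (0.21, edgeR adjusted p = 0.0581) were lost.

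The H3.3 pair, H3f3a (ENSMUSG00000060743, chr1:180800832-180813943 in GRCm38) and H3f3b (ENSMUSG00000016559, chr11:116021912-116027962), parted. H3f3b had the highest level per kilobase of the 9 genes at 0 h and fell in both genotypes, with 1539.7, 1398 and 1696 CPM at WT 0 h and 939, 828 and 858 CPM at WT 48 h. In CKO it stood at 1476, 1527 and 1385 CPM at 0 h and at 889, 878 and 857 CPM at 48 h. Every 48 h library lay below every 0 h library, and the log2 change was -0.82 ± 0.0681 in WT (SE, edgeR adjusted p = 1.34e-09) and -0.74 ± 0.0681 in CKO (edgeR adjusted p = 6.15e-09). H3f3a stood at 399, 353 and 377 CPM at WT 0 h and at 416, 377 and 388 CPM at WT 48 h, groups that overlapped (log2 change 0.07 ± 0.0607, edgeR adjusted p = 0.33). In CKO it stood at 369, 401 and 381 CPM at 0 h and at 341, 353 and 338 CPM at 48 h, without overlap (-0.16 ± 0.0608, edgeR adjusted p = 0.0232). That call was lost without CKO 0 h replicate 2 (edgeR adjusted p = 0.123) or 3 (0.0508), without CKO 48 h replicate 1 (0.072) or 3 (0.0738), and with no filter on low counts (0.132). Rows of near copies held few counts beside those of H3f3a, between 42 and 96 per library for H3f3a-ps1, between 4 and 15 for H3f3a-ps2 and between 12 and 30 for H3f3c. Whether reads that match H3f3a and a copy alike were dropped cannot be told from these counts.

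**Figure D2:**
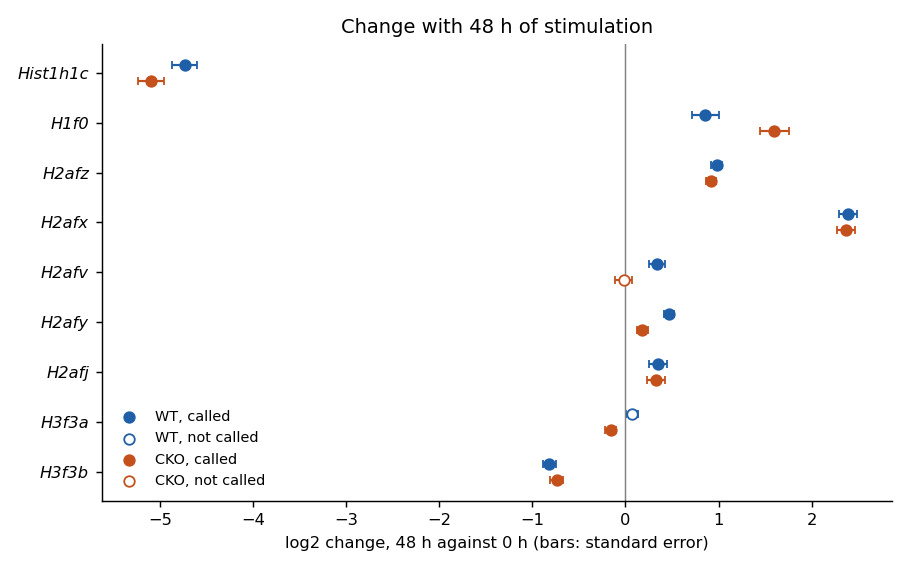
Log2 change of each gene from 0 h to 48 h in WT (blue) and CKO (orange), with bars for the SE and filled points for an edgeR adjusted p under 0.05. Hist1h1c lies near -5 and H2afx near 2.4 in both genotypes, and the distance between the genotypes is widest for H1f0 (0.86 in WT, 1.60 in CKO).

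The share of H3f3b in the summed counts of H3f3a and H3f3b shows the parting in each library. It was 79.4, 79.8 and 81.8% at WT 0 h and 69.3, 68.7 and 68.9% at WT 48 h. In CKO it was 80.0, 79.2 and 78.4% at 0 h and 72.3, 71.3 and 71.7% at 48 h. No 48 h library reached a 0 h library, the 48 h libraries of CKO all lay above those of WT, and the 0 h libraries of the genotypes overlapped. Wilson 95% intervals, which cover counting error only, were narrow beside these gaps, for example 79.0 to 79.9% in replicate 1 of WT 0 h and 68.7 to 69.8% in replicate 1 of WT 48 h. Divided by exon length the group means of the share were 82.8% at WT 0 h, 72.3% at WT 48 h, 81.8% at CKO 0 h and 75.0% at CKO 48 h. The summed level of the pair was 1921 ± 162 CPM at WT 0 h and 1268 ± 77.7 CPM at WT 48 h (SD, n = 3), and in CKO 1847 ± 81.2 CPM and 1218 ± 20.7 CPM. For H2A.Z, the share of H2afz in H2afz and H2afv was 84.7 to 85.2% at WT 0 h, 89.3 to 90.1% at WT 48 h, 82.6 to 84.0% at CKO 0 h and 90.2 to 91.2% at CKO 48 h. It was higher in every 48 h library than in every 0 h library, and the summed level of that pair was 179 ± 12 CPM at WT 0 h, 333 ± 2.72 CPM at WT 48 h, 164 ± 4.06 CPM at CKO 0 h and 285 ± 6.66 CPM at CKO 48 h. These shares are descriptions and carry no test.

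**Figure D3:**
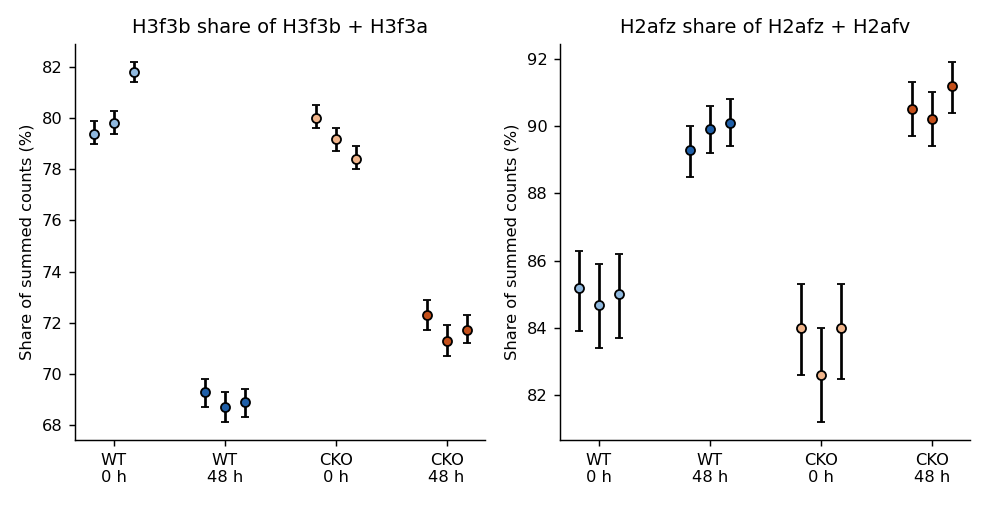
Share of H3f3b in the counts of H3f3b and H3f3a (left) and of H2afz in those of H2afz and H2afv (right), in percent per library, with Wilson 95% intervals as bars; the axes do not start at 0. The H3f3b share is 78.4% or more in the 0 h libraries and 72.3% or less in the 48 h libraries, while the H2afz share is higher at 48 h.

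Per kilobase of exon the order of the 9 genes at WT 0 h was H3f3b (519 CPM per kb), H3f3a (107), Hist1h1c (88.4), H2afz (85.6), H2afy (34.8), H2afj (20.1), H2afx (16.8), H2afv (16.5) and H1f0 (6.75). At WT 48 h H3f3b was still first (294 CPM per kb), H2afz followed at 168, H3f3a at 112 and H2afx at 88.2, and Hist1h1c was last at 3.32. In CKO the means were 492 (H3f3b), 109 (H3f3a), 99.4 (Hist1h1c), 77.0 (H2afz) and 3.72 CPM per kb (H1f0) at 0 h, and 294 (H3f3b), 146 (H2afz), 98.1 (H3f3a) and 86.6 CPM per kb (H2afx) at 48 h. Neighbours in such an order can lie within each other's spread, as Hist1h1c (88.4 CPM per kb, SD 12) and H2afz (85.6 ± 5.91 CPM per kb) did at WT 0 h. The place of Hist1h1c is that of its tailed transcripts, if mRNA was selected by the poly(A) tail.

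The second question was whether the genotypes differed before stimulation. At 0 h H1f0 was the only one of the 9 genes called, and it was lower in CKO. The CKO libraries (6.66 to 9.10 CPM) all lay below the WT libraries (11.9 to 16.8 CPM), and the CKO level was 55.3% of WT (SE 6.02, log2 difference -0.86 ± 0.157, edgeR adjusted p = 0.00166). Over all tested genes 7.48% were called, 4.1% higher and 3.38% lower in CKO, and the median log2 difference was -0.01 both over the 9 genes and over all genes. The libraries of H1f0 did not overlap between the genotypes, which held for 12.6% of all genes in this direction and 12% in the other. The other 8 genes had overlapping libraries, with log2 differences (CKO against WT) between -0.20 ± 0.0996 (SE, H2afj, edgeR adjusted p = 0.277) and 0.17 ± 0.102 (Hist1h1c, edgeR adjusted p = 0.381). The H1f0 call was kept in all 20 alternatives, with log2 differences from -1.0 to -0.7. Without replicate 1 of both WT groups it was -0.89 (edgeR adjusted p = 0.000693).

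Other values moved beside H1f0 at 0 h. The 12 erythroid and platelet markers, all read in both groups, summed to 29.0, 32.7 and 47.9 CPM at WT 0 h and to 23.2, 17.4 and 25.5 CPM at CKO 0 h. The same markers summed to between 2.65 and 3.63 CPM at WT 48 h and to between 2.09 and 3.14 CPM at CKO 48 h. Between the genotypes at 0 h 0 of 8 tested were called by edgeR and 0 by DESeq2, and 5 were lower at an unadjusted p under 0.05. The B-cell sums given above were also lower in CKO, with 1 of 10 markers lower by edgeR, 2 by DESeq2 and 5 at an unadjusted p under 0.05. Of 20 genes of the G2 and M phases 7 were higher and 1 lower in CKO by edgeR, 9 and 1 by DESeq2 and 11 and 1 at an unadjusted p under 0.05, and their sum was 63.9 to 96.0 CPM at WT 0 h and 98.8 to 153 CPM at CKO 0 h. Over all tested genes 21.1% had an unadjusted p under 0.05 in this comparison, in either direction. The part of these markers and genes in the H1f0 difference was not tested.

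The third question was whether the genotypes differed at 48 h. H2afz, H2afv and H2afy were lower in CKO, none was higher, and the other 6 genes were not called. H2afv stood at 78.3% of WT (SE 4.71, log2 difference -0.35 ± 0.0867, edgeR adjusted p = 0.0218), H2afz at 86.6% (SE 3.45, -0.21 ± 0.0575, edgeR adjusted p = 0.043) and H2afy at 86.6% (SE 3.40, -0.21 ± 0.0567, edgeR adjusted p = 0.0399). For each of these 3 genes all CKO 48 h libraries lay below all WT 48 h libraries. So they did for H3f3a (338 to 353 CPM against 377 to 416 CPM), whose log2 difference of -0.20 ± 0.0607 was not called (edgeR adjusted p = 0.0768) but passed with no filter on low counts (edgeR adjusted p = 0.0334) and with DESeq2 (adjusted p = 0.046). Over all tested genes 4.54% were called, 2.35% higher and 2.19% lower in CKO, and 12.2% had CKO libraries wholly below WT and 11.5% wholly above. The median log2 difference was -0.20 over the 9 genes and -0.01 over all genes. H3f3b and H2afx, by contrast, had log2 differences of 0.00 ± 0.0682 (edgeR adjusted p = 1) and -0.03 ± 0.0865 (edgeR adjusted p = 0.931), and H1f0, which had been called at 0 h, -0.12 ± 0.139 (edgeR adjusted p = 0.75).

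These 3 calls were lost when single libraries were left out. H2afv was not called without WT 48 h replicate 1 (edgeR adjusted p = 0.0593) or 3 (0.0538) or without CKO 48 h replicate 1 (0.0658) or 3 (0.156), nor without replicate 1 of both WT groups (0.0533). H2afz was not called without WT 48 h replicate 2 (edgeR adjusted p = 0.0862) or 3 (0.146), CKO 48 h replicate 1 (0.147), 2 (0.0983) or 3 (0.194), or CKO 0 h replicate 1 (0.0553) or 3 (0.0549). H2afy was not called without WT 48 h replicate 1 (edgeR adjusted p = 0.0546), 2 (0.0547) or 3 (0.0923), CKO 48 h replicate 1 (0.0947), 2 (0.0717) or 3 (0.203), or CKO 0 h replicate 1 or 3 (0.0531 each). The log2 difference stayed between -0.40 and -0.30 for H2afv, between -0.23 and -0.19 for H2afz and between -0.23 and -0.18 for H2afy over 20 alternatives. With library totals alone as the scale the calls of H2afz (edgeR adjusted p = 0.0741) and H2afy (0.0605) were also lost, with RLE size factors that of H2afz (0.0554) and in a fit of only the 2 groups that of H2afy (0.0614). Beside these genes, the 20 S-phase genes summed to 5882 to 6151 CPM at WT 48 h and 5734 to 5805 CPM at CKO 48 h, with 0 called by edgeR, 1 lower by DESeq2 and 2 lower at an unadjusted p under 0.05. The CD8 T-cell markers summed to 2621 to 2635 and 2328 to 2426 CPM, with 2 of 10 lower by edgeR, 3 by DESeq2 and 5 at an unadjusted p under 0.05. The natural killer markers summed to 282 to 322 and 219.7 to 256 CPM, with 0 of 10 called by edgeR and 1 in each direction by DESeq2 and at an unadjusted p under 0.05. Most of that sum was Eomes (mean 239 CPM at WT 48 h and 166 CPM at CKO 48 h, edgeR adjusted p = 0.109), and other markers such as Ncr1 had the higher mean in CKO (0.712 and 1.23 CPM). Over all tested genes 16.7% had an unadjusted p under 0.05 at 48 h, in either direction. Ctla4, Eomes and Ncr1 were named after their values were seen. The part of these in the differences was not tested.

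**Figure D4:**
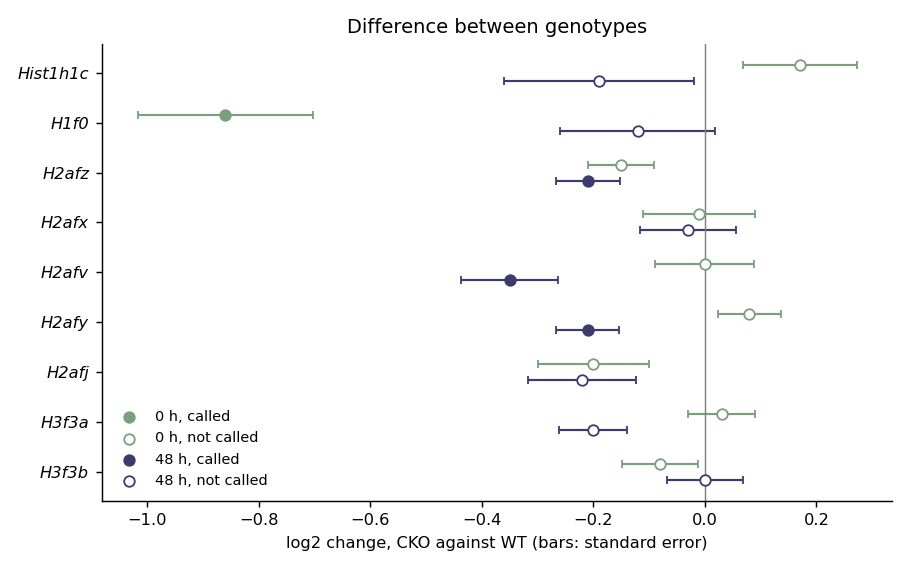
Log2 difference between CKO and WT for each gene at 0 h (green) and at 48 h (purple), with bars for the SE and filled points for an edgeR adjusted p under 0.05. H1f0 at 0 h (-0.86) and H2afz, H2afv and H2afy at 48 h (-0.21, -0.35 and -0.21) are filled.

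Whether the responses themselves differed was tested as an interaction, the CKO change minus the WT change. Of the 9 genes 0 were called by edgeR and 2 by DESeq2, 4 had an unadjusted p under 0.05 against 12.8% of all genes, and 1.38% of all tested genes were called, 0.609% higher and 0.772% lower. The largest value was that of H1f0, 0.74 ± 0.21 (log2, SE, edgeR adjusted p = 0.101), followed by H2afv (-0.36 ± 0.124, edgeR adjusted p = 0.196), Hist1h1c (-0.36 ± 0.198, edgeR adjusted p = 0.486) and H2afy (-0.29 ± 0.0804, edgeR adjusted p = 0.0938). The median was -0.06 over the 9 genes and -0.01 over all. H1f0 was called without WT 48 h replicate 1 (log2 difference of changes 0.85, edgeR adjusted p = 0.0337), without replicate 1 of both WT groups (0.89, edgeR adjusted p = 0.0253), without a filter on low counts (0.72, edgeR adjusted p = 0.00774) and with DESeq2 (0.75, adjusted p = 0.0435). H2afy was called without replicate 1 of both WT groups (-0.32, edgeR adjusted p = 0.0226) and with DESeq2 (-0.28, adjusted p = 0.0185).

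The levels of the groups, set in order, show which lay apart. H1f0 and H2afz shared the order CKO 0 h, WT 0 h, CKO 48 h, WT 48 h from low to high, with overlapping libraries between CKO 48 h and WT 48 h for H1f0 and between CKO 0 h and WT 0 h for H2afz. H2afy ran WT 0 h, CKO 0 h, CKO 48 h, WT 48 h, and only its unstimulated groups overlapped. For H2afv WT 48 h lay above the other 3 groups, which overlapped in the order CKO 48 h, WT 0 h, CKO 0 h. For H3f3a CKO 48 h was lowest, its highest library and the lowest of WT 0 h both rounding to 353 CPM without crossing, and the other 3 groups overlapped in the order WT 0 h, CKO 0 h, WT 48 h. H2afx and H3f3b overlapped between genotypes within each time and not between times, and so did Hist1h1c, while for H2afj each group overlapped the next.

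The machinery that handles these histones was described through fixed lists. Of 7 genes of histone mRNA processing all rose in both genotypes, among them Slbp, the stem-loop binding protein (log2 change 1.51 ± 0.0601 in WT and 1.53 ± 0.0605 in CKO, SE, edgeR adjusted p = 1.55e-14 and 1.43e-14), and Eri1, an exonuclease of the stem-loop (1.31 ± 0.0612 and 1.05 ± 0.0615). All 12 chaperones of replication-coupled histone deposition rose in both. Those with the smallest p in WT were Hat1, which acetylates new histone H4 (3.03 ± 0.0659 in WT), and Asf1b, an H3-H4 chaperone (3.44 ± 0.0928 in WT). Genes that place or exchange the replacement histones were divided. Of 8 genes of H3.3 deposition 4 rose and 4 fell in both genotypes, with Hirip3, a HIRA-interacting protein, at 2.43 ± 0.091, Asf1a, which hands H3.3 to HIRA, at 1.68 ± 0.0768, Daxx at 0.75 ± 0.0919 and Atrx at -0.31 ± 0.0895 in WT. Of 11 genes of H2A.Z exchange 5 rose and 5 fell in both, with the shared helicases Ruvbl1 (2.07 ± 0.0682 in WT) and Ruvbl2 (2.42 ± 0.0913) higher, and Srcap, the motor of its complex (-1.71 ± 0.191), and Vps72, its H2A.Z chaperone (-0.37 ± 0.0834), lower. These counts too stand against the 77.9% of all genes called in WT and 77.7% in CKO.

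Of 12 genes of the H2A.X damage response 7 rose in both genotypes, 2 fell in WT and 3 in CKO. Over all genes 77.9% were called in either direction in WT and 77.7% in CKO. Brca1, a repair factor (log2 change 4.27 ± 0.118 in WT, SE, edgeR adjusted p = 3.16e-17), and Rad50, of the break-sensing MRN complex (1.42 ± 0.062), rose with H2afx, while Mdc1, which binds phosphorylated H2A.X, fell (-0.42 ± 0.0731, edgeR adjusted p = 3.32e-05). All 20 S-phase and all 20 G2/M genes rose in both genotypes, for example Uhrf1 (5.50 ± 0.0857 in WT) and Kif20a (4.65 ± 0.098 in WT). Between the genotypes at 0 h, beside the G2/M counts given above, Atr, a kinase of the damage response, was higher in CKO (0.25 ± 0.0723, edgeR adjusted p = 0.0427), the nuclease gene Fen1 was lower (-0.78 ± 0.168, edgeR adjusted p = 0.00643) and the spindle motor gene Kif11 higher (1.06 ± 0.18, edgeR adjusted p = 0.00224). At 48 h Eri1 (-0.21 ± 0.0602, edgeR adjusted p = 0.0462) and the H3.3 chaperone gene Daxx (-0.35 ± 0.0912, edgeR adjusted p = 0.0358) were lower in CKO. Most genes of these lists were not called between genotypes: at 0 h 11 of 12 for H2A.X damage response and 19 of 20 for S phase. At 48 h it was 6 of 7 for histone mRNA processing and 7 of 8 for H3.3 deposition. Over all genes 7.48% were called at 0 h and 4.54% at 48 h.

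Most other histone genes were read at low levels. If mRNA was selected by the poly(A) tail, the counts of replication-dependent histone genes cover their tailed transcripts. Levels and changes of their stem-loop mRNAs are then not measured. Of 40 replication-dependent core histone genes 26 passed the count filter. In WT 14 rose and 7 fell, in CKO 13 rose and 7 fell, beside the 77.9% and 77.7% of all genes called in either direction. At 0 h 3 of the 26 were higher in CKO than in WT and 0 lower, beside 4.1% and 3.38% of all genes. One of the 3, Hist1h3c, rested on 0 counts over the WT group and 14 over the CKO group. Another, Hist1h2bc, had 205 and 354. At 48 h 0 differed between genotypes by edgeR, and 1 was higher by DESeq2 and at an unadjusted p under 0.05. Such an unadjusted p was found for 16.7% of all tested genes, in either direction. Their summed level was 34.5 to 42.6 CPM at WT 0 h, 47.6 to 53.1 at WT 48 h, 44.9 to 48.4 at CKO 0 h and 42.1 to 49.4 CPM at CKO 48 h. Hist3h2a had the most counts at 0 h and fell (13.1 to 2.04 CPM in WT, log2 change -2.69 ± 0.196, edgeR adjusted p = 1.44e-10), and Hist1h2bc fell as well (-2.30 ± 0.336 in WT, edgeR adjusted p = 2.74e-06). Hist1h3c had 0 counts at WT 0 h and 221 at WT 48 h, at least 66-fold higher against a floor of 3 counts over the group, while the CKO ratio was 13.5 (7.85 to 25.1, exact 95% interval for counting error). Of 5 tested linker genes other than the 2 above, 3 rose in WT, and in CKO 2 rose and 2 fell. Hist1h1b was 14.3-fold higher at 48 h in WT (exact 95% interval 4.62 to 72.0) and H1fx 12.3-fold (3.91 to 61.9), each from 3 counts over the group, and Hist1h1e fell in CKO (-1.31 ± 0.441, edgeR adjusted p = 0.0107) but was not called in WT (0.65 ± 0.456, edgeR adjusted p = 0.193). Cenpa, the centromeric H3 variant, was read at 138 CPM at WT 0 h and fell by 0.43 on the log2 scale in both genotypes (SE 0.0839), with an edgeR adjusted p of 0.000136 in WT and 0.000146 in CKO.

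For each gene the 3 named genes with the most similar course were found by the root mean square difference of centred log2 CPM over the 12 libraries, a description that reads nothing of shared control. Closest to Hist1h1c, whose own spread around its mean was 2.46, were Tcp11l2 (difference 0.159), Dtx1, a regulator of Notch signalling (0.244), and Bambi-ps1 (0.248). Closest to H1f0 (own spread 0.706) were Cul2, a ubiquitin ligase scaffold (0.202), Tmem38a, an intracellular cation channel (0.215), and Tirap, an adaptor of Toll-like receptors (0.22). Closest to H2afx (1.19) were Pa2g4 (0.0826) and the sterol synthesis genes Msmo1 (0.0869) and Acat2 (0.0921). Closest to H2afz (0.484) were Rbm14, Mrto4 and Egln1 (0.0604 to 0.0707), to H2afv (0.165) Rbck1, Tuba4a and Dad1 (0.0743 to 0.0772), to H2afy (0.185) Trim25, Bcl2 and Khdrbs1 (0.0484 to 0.0587), and to H2afj (0.227) Pih1d1, Cfl1 and Ndufs3 (0.0762 to 0.0867). H3f3b (0.398) ran closest to Vezf1, a zinc-finger factor (0.0675), Anxa11 and Tmem123, and H3f3a (0.0916) to the translation factor gene Eef1b2 (0.0356), Tram1 (0.0481) and the ribosomal protein gene Rpl22 (0.0512). The nearest of the other 8 histone genes to H3f3b was H3f3a, at 0.38, against the 0.398 by which H3f3b varied around its own mean.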

How the data were processed

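The 12 libraries hold RNA of CD8+ T cells from mouse spleen, 3 in each of 4 groups. TRIzol extraction and a TruSeq Stranded mRNA kit are named by the labels' protocols. The authors deposited raw whole-number counts per Ensembl ID, with no scaling and no logarithm. The submitters' processing notes list cutadapt, HISAT2 2.2.1, DESeq2 and GRCm39 without saying what each did. Not given in the sources used here are the counting program, the annotation release and the strand setting. Reads of antisense partners or near-identical copies may therefore be split.

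Symbols, positions and sequences came from GENCODE M21 and RefSeq on GRCm38, matched by ID or symbol, since no annotation of GRCm39 was at hand. edgeR 4.0.16 in R 4.3.3 was run on the counts with TMM factors (quasi-likelihood, robust, 1 mean per group, all 12 libraries, 8 residual degrees of freedom). The 15935 genes kept by filterByExpr were tested two-sided, and Benjamini-Hochberg adjustment ran over all of them. Calls were made at an adjusted p under 0.05. Contrasts were stimulation in each genotype, genotype at each time, and the difference of responses. Levels are CPM on TMM-scaled totals with the SD. Exon length is the union of exons in GENCODE M21.

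The 9 genes and the lists were chosen with earlier results of these data known. All 9 genes are named whatever their result. From each list the 2 genes with the smallest p in WT activation and the 1 with the smallest p between genotypes at each time could be named, with 3 similar genes for each of the 9 (log2 CPM with a prior count of 2, no Gm or Rik names). Alternatives were library totals only, RLE size factors, a fit with no count filter, at least 50 counts in at least 3 libraries, DESeq2 1.42.0, replicate blocks, only the groups compared, and leaving out each library or replicate 1 of both WT groups. The tests were run on simulated counts first. Other software was Python 3.11.15 with matplotlib 3.10.9, pandas 2.3.3, SciPy 1.17.1 and NumPy 2.4.6.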

Additional observations from a re-analysis of the deposited data

How the results depend on the processing

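Each of the 9 genes was refitted under up to 21 alternatives per comparison. Over genes, comparisons and alternatives 833 values kept their direction and their side of the threshold, 31 lost a call, 8 gained one and 46 uncalled values crossed 0. The calls of WT activation were kept in all 21 alternatives and the H1f0 call at 0 h in all 20. The stricter count filter left 3 genes called higher in CKO activation in place of 5. At 48 h 1 gene in place of 3 was called lower in CKO with library totals only, and between 0 and 3 with each library left out. For the interaction 1 gene was called higher with no count filter, with DESeq2 and without replicate 1 of both WT groups, and 1 lower with DESeq2 and without replicate 1 of both WT groups. With each library left out between 0 and 1 was called higher.

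Over all genes, the count called at 0 h (1192) ran from 689 to 1585 with each library left out. At 48 h (724) it was 1204 with no count filter and ran from 345 to 787 with each library left out. For the interaction (220) it was 576 with no count filter, 431 with DESeq2, 368 without replicate 1 of both WT groups and from 115 to 330 with each library left out. Same-numbered libraries share only a number by the labels. Their deviations from the group means correlated between -0.011 and 0.162 over 18 pairs, 2 of them over 0.1. Within a genotype the 6 such pairs ran from 0.0424 to 0.162, 12 of 12 libraries correlated best with their own number and 11 of 12 pairs with different numbers were below 0, as a hint from the data. These counts are tied and not separate hints, since the deviations within a group sum to 0. With the replicate number as a block 281 genes were called for the interaction, and 350 with a replicate block within genotype. No call of the 9 genes changed under the first block in the 5 comparisons, nor under the second in activation and the interaction, the 3 comparisons it was run for. Depth limits Hist1h1c at 48 h most, at 70 to 122 counts per library.

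Uncalled values that crossed 0 were small. H3f3a in WT activation was -0.05 with the stricter filter. H2afv in CKO activation was 0.02 with no count filter and between -0.06 and 0.05 with each library left out. At 0 h H2afx was 0.01 with library totals only, 0.00 with the stricter filter and with only the 2 groups, 0.05 without replicate 1 of both WT groups and between -0.05 and 0.04 with each library left out, where H2afv ran from -0.04 to 0.04 and H3f3a from -0.02 to 0.07. At 48 h without replicate 1 of both WT groups H1f0 was 0.00 and H2afx 0.08, and H3f3b was -0.02 with no count filter. With each library left out H1f0 ran from -0.21 to 0.00, H2afx from -0.12 to 0.08 and H3f3b from -0.04 to 0.05. The interaction without replicate 1 of both WT groups was 0.02 for H2afx and 0.07 for H2afj, and with each library left out from -0.12 to 0.07 and from -0.11 to 0.07. Counts divided by exon length moved the share of H3f3b to 82.8% (WT 0 h), 72.3% (WT 48 h), 81.8% (CKO 0 h) and 75.0% (CKO 48 h), and that of H2afz to 83.8, 89.0, 82.4 and 89.9%, with the order of the groups as in the counts. The cause of these changes was not tested.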
